A study of Mus musculus with 6 samples.

Results

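The genes described here carry the GENCODE biotype TEC (genes that await an experimental check), which is given to transcribed stretches that were annotated from transcript evidence but still lack proof as genes of their own. A TEC gene of GENCODE M21 was taken when it lay wholly inside a protein-coding gene on the same strand, when that host gene spanned over 800 kb, and when its mean count over the 6 samples was at least 10. This gave 152 nested TEC genes in 33 host genes, of 3214 TEC genes and 55401 genes in the files. Of 170 TEC genes nested in hosts of this size, 18 were under the count minimum. The nested genes were thus selected on measured values, namely their mean count over all samples, and that level is given as a description only. The comparison between the ASO groups was not part of the rule.

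The 6 samples were pieces of dorsal hippocampus from wild-type (WT) mice, the littermates of Ts65Dn animals, aged 4 months. An antisense oligonucleotide (ASO) had been injected into the dorsal dentate gyrus at 50 μg per hemisphere, and tissue was taken 3 days later. The 3 Snhg11-ASO mice received a gapmer against exon 5 of the long noncoding RNA Snhg11, which leads RNase H to cut the transcript and which the labels call Snhg11 KD. The 3 Control-ASO mice received a scrambled oligonucleotide of the same length. Neither group went without an injection, and each piece of tissue mixed neurons, glia and vessels, so fewer cells of a type and less RNA per cell cannot be told apart in these bulk samples. Total RNA was sequenced after removal of ribosomal RNA, with the strand kept. The labels do not say whether samples of a group differ in litter or cage, and the p-values below measure the spread between these 6 samples.

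A host of this size is copied by RNA polymerase II over many hours, and most of the copied RNA is intron. Introns are usually spliced out and degraded, but a library of total RNA holds unspliced precursor molecules besides finished messages. Many of the longest genes of the brain encode adhesion molecules, synaptic scaffolds and channel partners of neurons. A read that lies in an intron is counted on no gene unless another annotated gene covers it on that strand, and a TEC gene nested in the intron is such a gene. Reads on a nested TEC gene can therefore come from the precursor of the host or from an RNA of its own, and the counts alone do not separate them.

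All 152 nested genes had a single exon, with a median length of 2406 bases (388 to 7325), and 151 of them lay outside every annotated exon of the host. The exception was Gm45131, of which 150 of 2582 bases overlapped an exon of Dlg2. In 56 cases the nested gene lay in the first intron of the longest host transcript. The hosts with the most nested genes were Kcnip4 (24), Auts2 (22), Cntnap2 (22), Dlg2 (19) and Ctnna2 (9), and together these 5 held 96 of the 152. Reads on the opposite strand were few: over the 6 samples, the opposite strand had a median of 0.082% of the counts of both strands, and 143 genes were under 1%. The largest such shares belonged to Gm37936 in Nckap5 (46.6%) and Gm44625 in Fgfr2 (22.5%). The 5 nested genes assigned to Fgfr2 form a special case, since the annotation extends this gene over 2961 kb and each of the 5 also lay inside a smaller protein-coding gene of the same strand (Ate1, Ikzf5, Chst15, Eef1akmt2 or Ctbp2).

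The 3′ ends of the nested genes are shown because a finished transcript usually ends shortly after a polyadenylation signal, whereas a piece of intron need not. AATAAA, the commonest form of that signal, was searched on the annotated strand in the last 50 bases of each gene's longest transcript. It was present in 15 of the 152 nested genes (9.87%). The share was 12.9% among TEC genes nested in hosts of 200 to 800 kb, 16.4% in hosts of up to 200 kb, 28.5% among TEC genes inside no protein-coding gene of their strand, and 59.2% among the longest transcripts of protein-coding genes. The nested genes were also low in G and C, with a median of 38.4% against 43.7% for TEC genes inside no protein-coding gene and 49.1% for protein-coding transcripts. Unlike the nested genes, these comparison classes had no count minimum, so they include genes with few or no counts here. The last 60 bases of the most highly counted nested gene of each of 10 hosts follow, from GENCODE M21 on GRCm38 and on the strand of the gene. Capitals mark AATAAA, which occurred in 2 of these 10. No other form of the signal was searched, so an end without capitals may still hold another form. The search concerns the annotated ends and not the reads, and the sequence past these ends was not examined. The source of the reads was not tested.
2900064K03Rik (Kcnip4, minus strand, chr5:49515825-49515884): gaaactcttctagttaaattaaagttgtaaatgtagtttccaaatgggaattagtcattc
Gm45176 (Dlg2, plus strand, chr7:91135877-91135936): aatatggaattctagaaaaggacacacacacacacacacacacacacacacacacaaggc
Gm42993 (Auts2, minus strand, chr5:132015610-132015669): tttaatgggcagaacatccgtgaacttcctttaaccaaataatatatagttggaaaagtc
Gm43879 (Cntnap2, plus strand, chr6:45084446-45084505): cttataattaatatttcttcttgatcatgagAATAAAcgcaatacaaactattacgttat
Gm44433 (Ctnna2, minus strand, chr6:77428678-77428737): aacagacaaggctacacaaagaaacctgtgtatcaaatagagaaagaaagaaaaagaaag
Gm47590 (Anks1b, plus strand, chr10:90854015-90854074): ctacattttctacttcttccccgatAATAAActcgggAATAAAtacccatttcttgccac
C230086J09Rik (Pcdh9, minus strand, chr14:93797141-93797200): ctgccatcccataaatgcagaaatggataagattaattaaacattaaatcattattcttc
3110080E11Rik (Csmd1, minus strand, chr8:16912706-16912765): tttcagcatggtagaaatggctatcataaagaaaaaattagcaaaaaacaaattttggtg
Gm48692 (Nrxn3, plus strand, chr12:89658042-89658101): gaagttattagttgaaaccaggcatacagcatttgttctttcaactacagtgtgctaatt
Gm45501 (Fgfr2, minus strand, chr7:132837698-132837757): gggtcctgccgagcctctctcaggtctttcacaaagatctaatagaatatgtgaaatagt

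Counts on genes ranged from 28951250 to 43997537 per sample. Snhg11, the target of the ASO, had 551, 436 and 209 CPM (counts scaled to an equal library size per sample) in Control-ASO against 139, 65.4 and 69.4 CPM in Snhg11-ASO, without overlap. The summed markers of other cell types varied widely within both groups. Astrocyte markers summed to 1178 to 3083 CPM in Control-ASO and 1523 to 3655 CPM in Snhg11-ASO, and choroid plexus markers to 40.3 to 1933 CPM and 72.4 to 1314 CPM. Markers of neurons summed to 6254 to 6496 CPM in Control-ASO and 5561 to 6431 CPM in Snhg11-ASO, and 1 of these 10 genes was lower at an unadjusted p under 0.05. The genes listed as markers of granule cells of the dentate gyrus summed to 272 to 338 CPM in Control-ASO and 281 to 351 CPM in Snhg11-ASO. The sums of the oligodendrocyte lineage, microglial and endothelial lists also overlapped between the groups, and no marker of the 7 lists was at 0. The part of cell composition in the results below was not tested.

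The nested genes were lower in the Snhg11-ASO hippocampus far more often than higher. The log2 fold change (Snhg11-ASO over Control-ASO, from edgeR's quasi-likelihood test) was below 0 for 135 of 152 nested genes and above 0 for 17. Its median was -0.50, with quartiles of -0.78 and -0.21, whereas the median over all 19969 genes tested was 0.01. At an unadjusted p under 0.05, 51 nested genes were lower and 0 higher, which is 33.6% of them, where 4.43% of all genes tested were lower and 3.68% higher. The 152 are not independent observations, since 96 of them lay in 5 hosts and those of a host may share its precursor. Their share is thus a description. No nested gene passed a Benjamini-Hochberg adjusted p of 0.05 in edgeR (the smallest was 0.237), and neither did any other gene (0.0%). DESeq2 called 25 nested genes lower and 0 higher at its adjusted p of 0.05, against 1.07% of all genes lower, and 22 of those 25 lay in Kcnip4. Of these counts 24 of the 51 came from Kcnip4 alone: without its nested genes 27 of 128 were lower at an unadjusted p under 0.05, and DESeq2 called 3. The 51 also became 31 without Control-ASO replicate 1 and 33 without Control-ASO replicate 2. Among all genes tested, 885 of 19969 were lower at that unadjusted p with all samples. In the same 2 fits it was 534 of 20640 and 1007 of 20793.

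The same direction was seen in the separation of the samples. In 63 nested genes every Snhg11-ASO sample was below every Control-ASO sample, and in 1 nested gene (Gm45130) every Snhg11-ASO sample was above. Over all genes tested, 7.7% were separated downward and 7.73% upward. The median nested gene stood at 0.44, 0.26 and 0.06 on the log2 scale around its own mean in Control-ASO and at -0.52, -0.04 and -0.24 in Snhg11-ASO. Snhg11-ASO replicate 1 was thus the lowest sample, and without it the median log2 fold change was -0.40. The nested genes took 0.124% ± 0.016 of the counts on genes in Control-ASO and 0.0822% ± 0.011 in Snhg11-ASO (SD, n = 3 each), with no overlap between the groups. An exact permutation test of that share gave p = 0.1, the smallest value that 3 samples against 3 allow. The reads that fell on no annotated gene, which include most intronic reads, were 38.6% ± 3.1 of all read pairs in Control-ASO and 36.5% ± 3.1 in Snhg11-ASO (SD, n = 3; exact permutation p = 0.4).

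**Figure D1:**
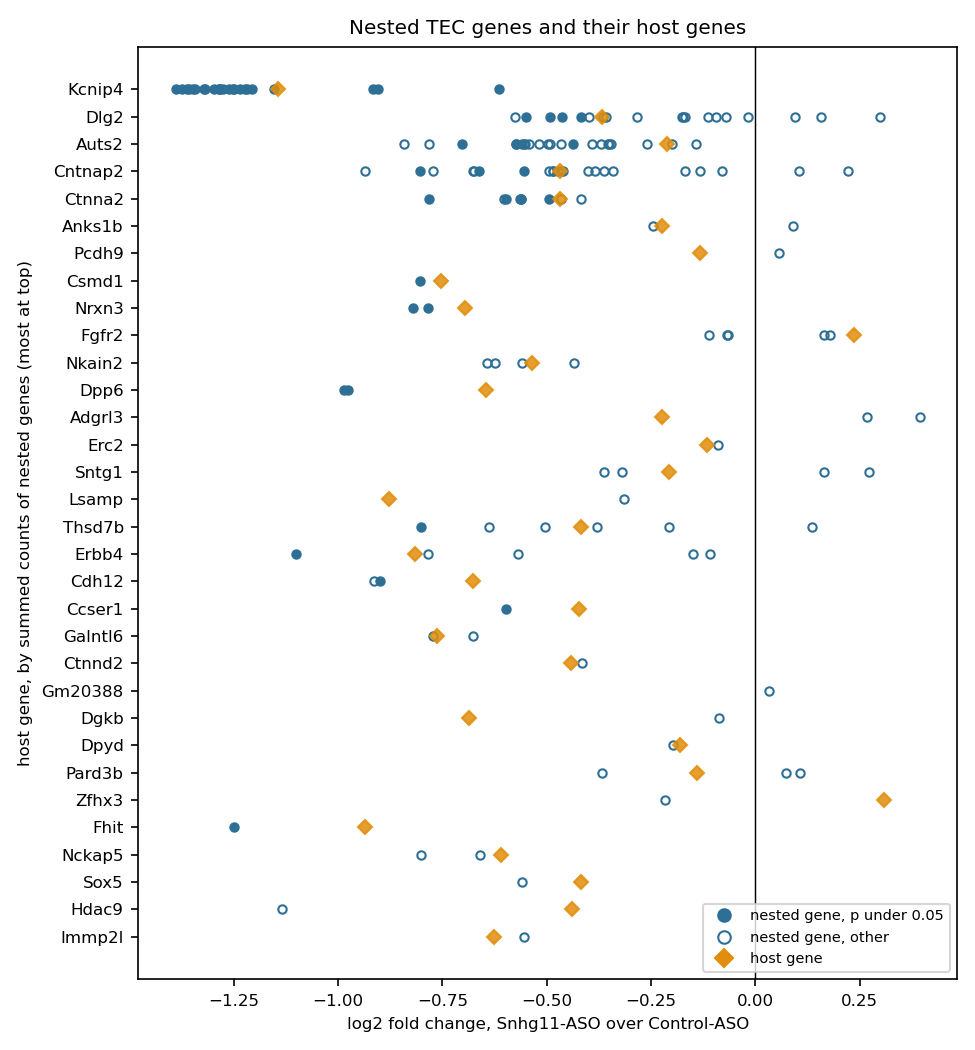
Each circle is a nested TEC gene and each diamond its host gene, placed by log2 fold change (Snhg11-ASO over Control-ASO, edgeR) on the horizontal axis. Filled circles have an unadjusted p under 0.05, and 1 host is left out of the plot. The 24 circles of Kcnip4 are all filled and lie between -1.39 and -0.61, and all other circles lie between -1.25 and 0.39.

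The exons of most hosts were lower as well. Of the 32 hosts that could be tested, 22 were lower and 1 higher at an unadjusted p under 0.05 in edgeR. Over all genes tested, 4.43% were lower and 3.68% higher. The median log2 fold change of these hosts was -0.44. None passed the adjusted p in edgeR, whereas DESeq2 called 10 lower, against 1.07% of all genes. When the counts of all nested genes of a host were summed, the sum was lower in 29 of 33 hosts. In 16 of them the groups did not overlap, where 7.7% of all genes tested were separated downward. In each of those 16 hosts the counts of the host's own exons were separated in the same direction. In 7 further hosts the exons were separated downward while the nested sums overlapped. Across the 32 hosts the log2 fold change of the nested sum and of the host's exons had a Pearson correlation of 0.69, given as a description, since both come from the same 6 libraries. The other host, Gm20388, had no counts of its own. Long genes that hold no counted TEC gene were also low. Of 62 tested protein-coding genes over 800 kb outside the list of hosts, 35 (56.5%) were lower at an unadjusted p under 0.05 and 0 higher. Their median log2 fold change was -0.46.

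Among the partners of ion channels and pumps, Kcnip4 stood out. It encodes an auxiliary calcium-binding protein of Kv4 potassium channels. Its 24 nested genes all lay in intron 1 of a gene of 1135 kb (chr5:48389502-49524907, minus strand). They made up 28.2% of all counts on the 152 nested genes.
Their summed level was 427, 479 and 327 CPM in Control-ASO and 152, 209 and 189 CPM in Snhg11-ASO, or 411 ± 77 against 183 ± 29 CPM (SD, n = 3). The log2 fold change of the sum was -1.17 (SE 0.18, edgeR unadjusted p = 3.3e-04, adjusted p = 0.422). Each of the 24 was lower with no overlap between the groups, and their median log2 fold change was -1.28. The exons of Kcnip4 had 47.4, 58.1 and 39.1 CPM in Control-ASO and 21.6, 23.7 and 20.04 CPM in Snhg11-ASO, a log2 fold change of -1.14 (SE 0.16, adjusted p = 0.237 from edgeR). DESeq2 called Kcnip4 itself and 22 of its nested genes, all but the ones nearest to and farthest from the host's start.

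The nested gene of Kcnip4 with the most counts, 2900064K03Rik (chr5:49515825-49518937, minus strand), begins 5.97 kb after the start of the host. It had 41.0, 49.0 and 34.97 CPM in Control-ASO and 18.2, 34.0 and 29.3 CPM in Snhg11-ASO, so the groups were separated by a small gap, and the log2 fold change was -0.61 (SE 0.24, unadjusted p = 0.039 from edgeR). The members with the smallest p-values lay deep in the intron, between 679 and 809 kb from the start. Gm43319 (chr5:48799010-48801279) had 12.1, 13.7 and 9.74 CPM in Control-ASO and 4.48, 4.81 and 4.53 CPM in Snhg11-ASO, a log2 fold change of -1.36 (SE 0.17). Gm43829 (chr5:48712090-48715891) had 15.5, 15.3 and 12.2 CPM against 6.37, 6.58 and 5.50 CPM, a log2 fold change of -1.22 (SE 0.16). In both genes the Snhg11-ASO samples lay close together, far below the lowest Control-ASO sample. Gm43321 (-1.32, SE 0.18) and Gm43320 (-1.28, SE 0.17) gave the same picture, and all 4 had an adjusted p of 0.237 in edgeR and were called by DESeq2.

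Dpp6 encodes another auxiliary subunit of Kv4 channels, and both of its nested genes were lower at an unadjusted p under 0.05. Their sum was 17.0, 10.6 and 9.08 CPM in Control-ASO and 7.47, 6.15 and 4.95 CPM in Snhg11-ASO, with a log2 fold change of -0.98 (SE 0.28), beside -0.65 (SE 0.14) for the exons of Dpp6. The 4 nested genes of Nkain2, whose product interacts with the sodium pump, had log2 fold changes of -0.64 to -0.435, none with a p under 0.05. Over the 3 hosts of this kind, 26 of 30 nested genes were lower at an unadjusted p under 0.05, 24 of them in Kcnip4.

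Among nuclear regulators, Auts2, whose product takes part in transcriptional control by a Polycomb complex, held 22 nested genes. All 22 had a negative log2 fold change, 5 of them with an unadjusted p under 0.05, and the median was -0.50. The nested sum was 232, 186 and 145 CPM in Control-ASO and 121, 163 and 126 CPM in Snhg11-ASO, so that the groups overlapped, and the log2 fold change was -0.46 (SE 0.19). The exons of Auts2 overlapped more (107, 82.4 and 68.8 CPM against 83.6, 79.2 and 60.4 CPM), with a log2 fold change of -0.21 (SE 0.19). Gm42993 (chr5:132015610-132022934, minus strand), the longest and most counted of the 22, had 38.1, 28.8 and 24.7 CPM in Control-ASO and 19.6, 23.3 and 18.6 CPM in Snhg11-ASO. The groups did not overlap, and the log2 fold change was -0.57 (SE 0.18, unadjusted p = 0.0168, adjusted p = 0.543 from edgeR). The transcription factor genes Sox5 and Zfhx3 and the histone deacetylase gene Hdac9 each held 1 nested gene, with log2 fold changes of -0.56, -0.22 and -1.14 and none with a p under 0.05.

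The 9 hosts that organise cell adhesion and synapses held 41 nested genes, of which 36 had a negative log2 fold change and 12 were lower at an unadjusted p under 0.05 (median -0.48). Csmd1, which encodes a large membrane protein linked to complement regulation, held 3110080E11Rik (chr8:16912706-16916182, minus strand, intron 3), the nested gene with the smallest p of all. It had 29.0, 29.6 and 31.5 CPM in Control-ASO and 16.6, 17.9 and 17.1 CPM in Snhg11-ASO, with little spread in either group. The log2 fold change was -0.80 (SE 0.10, unadjusted p = 9.5e-05, adjusted p = 0.237 in edgeR, 4.3e-09 in DESeq2). The exons of Csmd1 differed by as much, with 253, 218 and 222 CPM in Control-ASO against 161, 135 and 115 CPM in Snhg11-ASO and a log2 fold change of -0.75 (SE 0.14).

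Nrxn3, a presynaptic neurexin that binds neuroligins across the synapse, held Gm48692 and Gm48700. Gm48692 (chr12:89655723-89658101, plus strand) had 19.8, 24.9 and 18.3 CPM in Control-ASO and 11.4, 14.0 and 10.2 CPM in Snhg11-ASO, a log2 fold change of -0.82 (SE 0.18). The exons of Nrxn3 had 278, 328 and 237 CPM against 192, 186 and 142 CPM, a log2 fold change of -0.70 (SE 0.16). Both nested genes and the host were separated between the groups and were called by DESeq2. With the 22 in Kcnip4 and 3110080E11Rik, the pair completes the 25 nested genes that DESeq2 called.

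Cntnap2 encodes a contactin-associated protein of the neurexin superfamily that gathers potassium channels on axons, and it held 22 nested genes over 2245 kb. Their sum was 130, 122 and 101 CPM in Control-ASO and 59.9, 117 and 117 CPM in Snhg11-ASO. Snhg11-ASO replicate 1 was far below the other samples, whose groups overlapped, and the log2 fold change was -0.26 (SE 0.26). The exons of Cntnap2 did not share this, with 151, 144 and 113 CPM in Control-ASO and 106, 97.3 and 91.1 CPM in Snhg11-ASO and a log2 fold change of -0.47 (SE 0.13). Gm43879 (chr6:45080746-45084505, plus strand), the most counted nested gene, had 15.8, 13.0 and 13.0 CPM against 9.31, 17.5 and 18.1 CPM. Its log2 fold change of 0.10 (SE 0.26) turned to -0.023 without Snhg11-ASO replicate 2 and to -0.057 without replicate 3.

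Ctnna2, the catenin that ties neuronal cadherins to actin, held 9 nested genes that were alike in their log2 fold change (-0.78 to -0.42). The nested sum was 75.4, 76.8 and 75.5 CPM in Control-ASO and 34.8, 64.8 and 54.8 CPM in Snhg11-ASO. The Control-ASO samples agreed closely and all Snhg11-ASO samples were lower, replicate 1 most of all, with a log2 fold change of -0.56 (SE 0.21). The exons of Ctnna2 had a log2 fold change of -0.47 (SE 0.14). Gm44433, its most counted nested gene (chr6:77428678-77433509, minus strand), had 16.9, 19.4 and 18.2 CPM against 9.31, 14.9 and 12.7 CPM, a log2 fold change of -0.56 (SE 0.19). By contrast C230086J09Rik in the protocadherin gene Pcdh9 (chr14:93797141-93801173, minus strand) had 23.7, 19.5 and 28.5 CPM in Control-ASO and 19.6, 28.0 and 26.9 CPM in Snhg11-ASO. Its groups overlapped (log2 fold change 0.06, SE 0.19), as did those of the exons of Pcdh9 (-0.13, SE 0.15). Both nested genes of the latrophilin gene Adgrl3 had a positive log2 fold change. Gm43594 had 7.003, 5.50 and 6.65 CPM against 10.8, 5.60 and 6.69 CPM, and Gm43084 had 0.816, 0.921 and 0.950 CPM against 2.10, 0.718 and 0.733 CPM. Both rested on Snhg11-ASO replicate 1, without which the log2 fold changes were -0.053 and -0.30.

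The 4 hosts that encode synaptic scaffolds held 26 nested genes, with a median log2 fold change of -0.17 and 4 lower at an unadjusted p under 0.05, all in Dlg2. Dlg2 encodes PSD-93, a scaffold of the postsynaptic density, over 1973 kb. The sum of its 19 nested genes was 251, 213 and 205 CPM in Control-ASO and 185, 199 and 167 CPM in Snhg11-ASO, a log2 fold change of -0.28 (SE 0.11), beside -0.37 (SE 0.11) for its exons. The groups of the sum were separated only narrowly. Gm45176 (chr7:91131841-91135936, plus strand) had 36.2, 30.0 and 31.8 CPM against 19.7, 26.4 and 24.9 CPM, a log2 fold change of -0.46 (SE 0.15). Gm45130 (chr7:91816167-91819554), farther along the host, was the 1 nested gene of the 152 in which the groups were separated upward. It had 7.99, 8.20 and 8.16 CPM in Control-ASO and 10.96, 10.1 and 8.91 CPM in Snhg11-ASO (log2 fold change 0.30, SE 0.14, unadjusted p = 0.0735 from edgeR). In Anks1b, which encodes a scaffold protein bound to PSD-95, Gm47590 (chr10:90851099-90854074, plus strand) had 26.9, 16.9 and 13.1 CPM against 28.5, 17.6 and 14.4 CPM, and the groups overlapped fully. In Sntg1, the gene of a syntrophin, Gm37005 had 0.578, 0.862 and 0.564 CPM against 0.997, 0.837 and 0.595 CPM and a log2 fold change of 0.27 (SE 0.33).

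Of the receptors and signalling enzymes, Fgfr2, the gene of a fibroblast growth factor receptor that is strong in glia, was the 1 host with a higher level at an unadjusted p under 0.05. Its exons had 43.7, 44.9 and 39.7 CPM in Control-ASO and 51.96, 50.01 and 49.3 CPM in Snhg11-ASO, a log2 fold change of 0.24 (SE 0.09, adjusted p = 0.583 from edgeR). The sum of the 5 nested genes overlapped between the groups, at 19.8, 13.9 and 11.96 CPM against 15.8, 14.7 and 14.4 CPM. Gm45501, the most counted, had 6.73, 4.67 and 4.07 CPM against 4.69, 5.38 and 4.70 CPM. Gm45719 had 1.84, 2.23 and 1.84 CPM against 2.36, 2.11 and 2.22 CPM, a log2 fold change of 0.18 (SE 0.21). The neuregulin receptor gene Erbb4 held 5 nested genes, all with a negative log2 fold change, and their sum was 6.90, 4.61 and 5.85 CPM against 3.20, 4.28 and 4.49 CPM. The exons of Erbb4 differed more, from 140, 110 and 126 CPM to 60.8, 78.9 and 73.8 CPM (log2 fold change -0.82, SE 0.13).

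The remaining 10 hosts, which include the tumour suppressor candidate Fhit and the pyrimidine catabolism gene Dpyd, held 19 nested genes of low level. Of these 15 had a negative log2 fold change and 3 were lower at an unadjusted p under 0.05. The nested gene of Fhit, Gm48442, had 1.36, 1.01 and 0.980 CPM in Control-ASO and 0.393, 0.455 and 0.550 CPM in Snhg11-ASO, and the exons of Fhit were as sparse, at 2.48, 2.17 and 2.82 CPM against 1.10, 1.17 and 1.63 CPM. Both were separated between the groups, with log2 fold changes of -1.25 (SE 0.29) and -0.93 (SE 0.26).

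**Figure D2:**
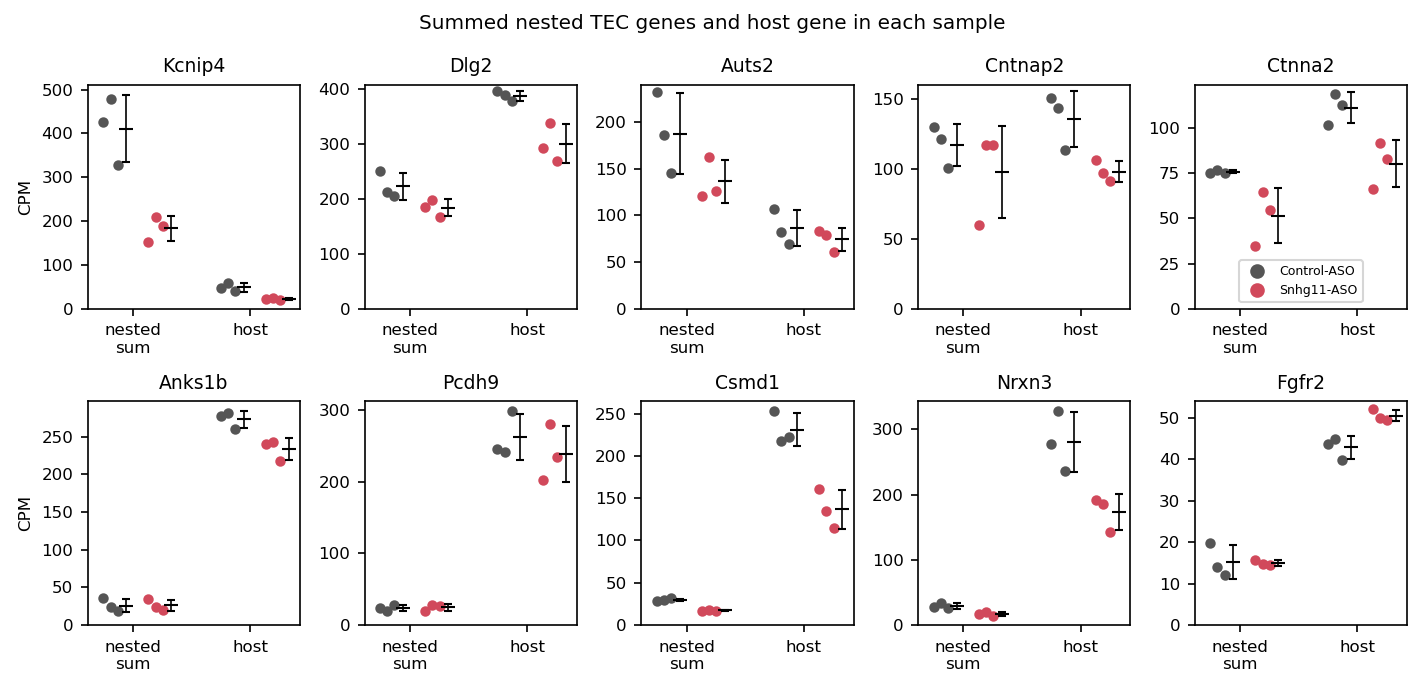
CPM in each sample for the summed nested TEC genes and for the exons of the host, in the 10 hosts with the most nested counts. Grey points are Control-ASO and red points Snhg11-ASO samples, and bars give the mean ± SD of 3 samples. In Kcnip4, Csmd1 and Nrxn3 both the nested sum and the host are lower in all Snhg11-ASO samples, in Cntnap2 a single Snhg11-ASO sample at 59.9 CPM sits apart, and in Fgfr2 the host is higher.

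Whether the nested signal changed more or less than the host was read from the ratio of both counts within a sample, on the log2 scale. The exons are part of the unspliced precursor as well, so the host counts can hold precursor reads too. The ratio thus does not set precursor against finished message, and a difference near 0 does not show that both changed alike. In Kcnip4 the nested genes together had several times the counts of the host's exons, with log2 ratios of 3.17, 3.04 and 3.06 in Control-ASO against 2.82, 3.14 and 3.23 in Snhg11-ASO. The groups overlapped and the ratio differed by -0.03 (95% interval -0.48 to 0.43, limma). In Csmd1 the difference was -0.04 (-0.54 to 0.46) and in Nrxn3 -0.12 (-0.55 to 0.31). Over the 32 hosts with a ratio the median difference was -0.02, with 17 negative and 15 positive. None had an unadjusted p under 0.05, and none passed the adjusted p. Over the ratio of all 722 hosts of any length, 0.554% were lower and 0.97% higher at an unadjusted p under 0.05 and 0.0% passed the adjusted p in limma. The intervals were wide. The limma fit shares variance over the 722 hosts, so a width is not the spread of that host's samples alone. In Dlg2 all log2 ratios lay between -0.88 and -0.66, yet its interval ran from -0.33 to 0.52. The shares under 0.05 were below what that threshold gives by chance. The lack of a low p thus does not show that no ratio differed. Only 4 of the 32 intervals lay wholly within 0.5 of 0 on the log2 scale. For the other hosts the interval included a larger difference in the ratio.

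The hosts at the ends of the order had few nested counts or 1 divergent sample. Hdac9 had the most negative difference, -0.87 (95% interval -1.74 to 0.001, limma unadjusted p = 0.0503), from a single nested gene of 0.578, 0.386 and 0.623 CPM in Control-ASO and 0.0787, 0.263 and 0.366 CPM in Snhg11-ASO. Zfhx3 followed at -0.46 (-1.20 to 0.28). At the other end Dgkb, the gene of a diacylglycerol kinase, had a difference of 0.57 (-0.03 to 1.17), since its exons were lower (176, 190 and 149 CPM against 75.7, 137 and 108 CPM) while its nested gene overlapped between the groups (2.31, 1.61 and 1.28 CPM against 0.865, 2.11 and 1.90 CPM). Lsamp, an adhesion molecule of the IgLON family, had 0.53 (-0.04 to 1.11). Its log2 ratio was -5.79, -5.89 and -5.79 in Control-ASO against -5.79, -5.06 and -5.02 in Snhg11-ASO, so that Snhg11-ASO replicate 1 stood with the Control-ASO samples. The ratio was separated between the groups in 3 of the 32 hosts, downward in Auts2 and upward in Erbb4 and Pcdh9, where 2.49% of the 722 hosts were separated downward and 2.91% upward. Their unadjusted p-values in limma were 0.286, 0.162 and 0.34, so none passed the threshold.

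**Figure D3:**
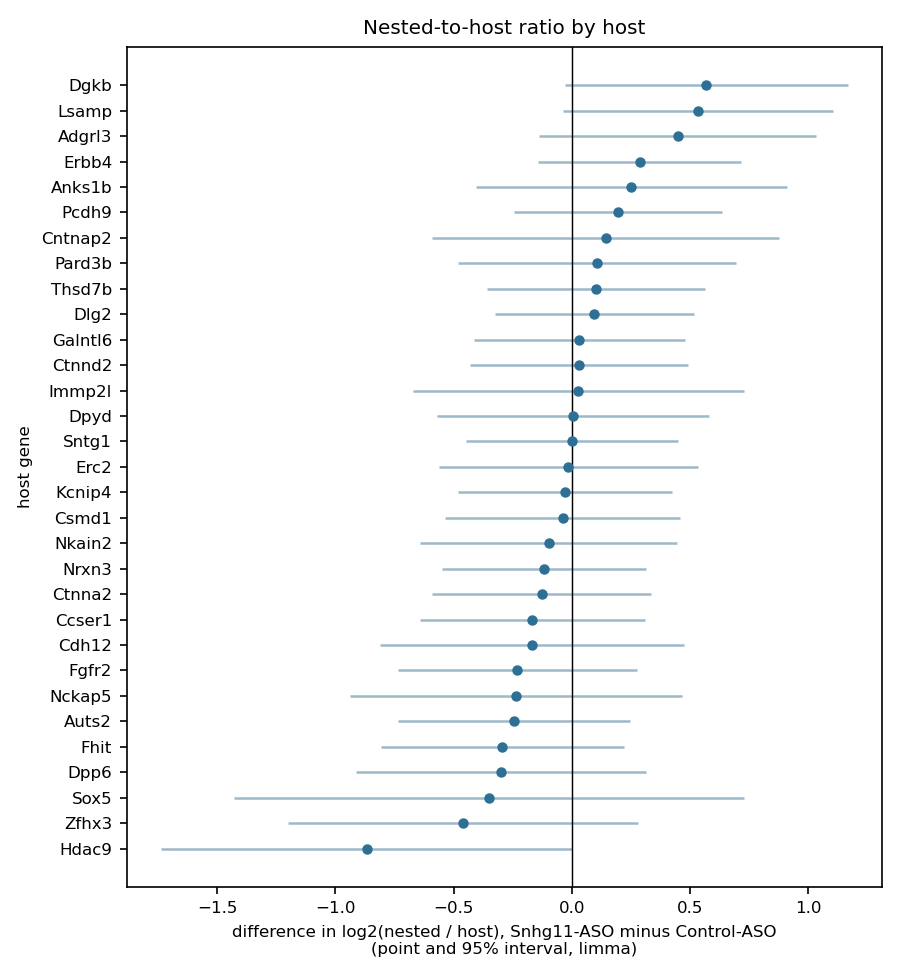
Difference between the groups (Snhg11-ASO minus Control-ASO) in the log2 ratio of nested counts to host counts, by host and in order of size, with 1 host left out of the plot. Points are the limma estimates and bars their 95% intervals. The points run from -0.87 in Hdac9 to 0.57 in Dgkb, and every interval reaches 0.

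Per kb of annotated sequence, nested genes were below the exons of their host in each of the 32 hosts. Averaged over the 6 samples, the level of the nested genes in CPM per kb was 4.82% (Dgkb) to 90.9% (Auts2) of that of the host, with a median of 19.6%. In Kcnip4 it was 58.4% and in Csmd1 70.3%, whereas it was 18.3% in Dlg2 and 16.7% in Cntnap2.

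The level of nested genes differed along the host. In Kcnip4 the mean level was 11.1 CPM per kb for 2900064K03Rik at 5.97 kb from the host's start and 0.704 CPM per kb for Gm43831 at 987 kb. Cntnap2 showed the same order, from a median of 3.92 CPM per kb in the 7 nested genes nearest to the start to 0.590 in the 7 farthest from it, and Auts2 from 3.69 to 1.89. In Ctnna2 the 3 farthest genes were higher (2.56) than the 3 nearest (1.18). These hosts have several annotated transcripts, and alternative start sites were not separated here.

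The difference between the ASO groups also varied along the host, and this was noticed only after the values had been seen. Between the nested genes nearest to the start and those farthest from it, the median log2 fold change went from -0.13 to -0.50 in Cntnap2 and from -0.35 to -0.55 in Auts2 (7 genes at each end), and from -0.46 to -0.60 in Ctnna2 (3 genes at each end). At the far end of Auts2, Control-ASO replicate 1 stood high. Gm42589, the farthest, had 7.41, 3.09 and 2.23 CPM in Control-ASO against 3.04, 3.23 and 2.45 CPM in Snhg11-ASO. These medians are not given without that sample. In Kcnip4 the medians of the 8 nearest and the 8 farthest were almost equal, at -1.26 and -1.29. The nested gene closest to the start had the highest log2 fold change within its host in Kcnip4 (-0.61 at 5.97 kb), in Auts2 (Gm43186, -0.14, SE 0.27, at 8.10 kb) and in Cntnap2 (B230112I24Rik, 0.22, SE 0.28, at 14.2 kb), and the latter pair had a p over 0.05. The correlation of log2 fold change with distance was -0.79 in Auts2 (n = 22), -0.67 in Cntnap2 (n = 22), -0.75 in Ctnna2 (n = 9) and -0.39 in Kcnip4 (n = 24). Dlg2 had the opposite order, with a correlation of 0.72 (n = 19): the median log2 fold change was -0.44 in the 6 nested genes nearest to the start and 0.04 in the 6 farthest. These correlations are descriptions, since the nested genes of a host share its precursor and all 6 libraries.

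In single samples, the slope of the log2 level with distance did not separate the groups in any of the 5 hosts. In Cntnap2 it was -0.25, -0.24 and -0.28 per 100 kb in Control-ASO, against -0.24, -0.29 and -0.32 in Snhg11-ASO. In Kcnip4 it was -0.32, -0.33 and -0.34 against -0.29, -0.39 and -0.38. Snhg11-ASO replicate 1 lay apart from the other Snhg11-ASO samples in both hosts. The difference of the group means ran from -0.04 per 100 kb (Ctnna2) to 0.04 (Dlg2), with exact permutation p-values of 0.3 to 0.6 and 0.6 for every host after adjustment over the 5. Without Snhg11-ASO replicate 1 the difference was -0.07 in Auts2, -0.05 in Cntnap2, -0.08 in Ctnna2, -0.06 in Kcnip4 and 0.005 in Dlg2. Only this sample was left out of the slopes. In Auts2 Control-ASO replicate 1 also lay apart from its group. The slopes there were -0.08, -0.15 and -0.16 per 100 kb in Control-ASO, against -0.09, -0.19 and -0.21 in Snhg11-ASO.

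**Figure D4:**
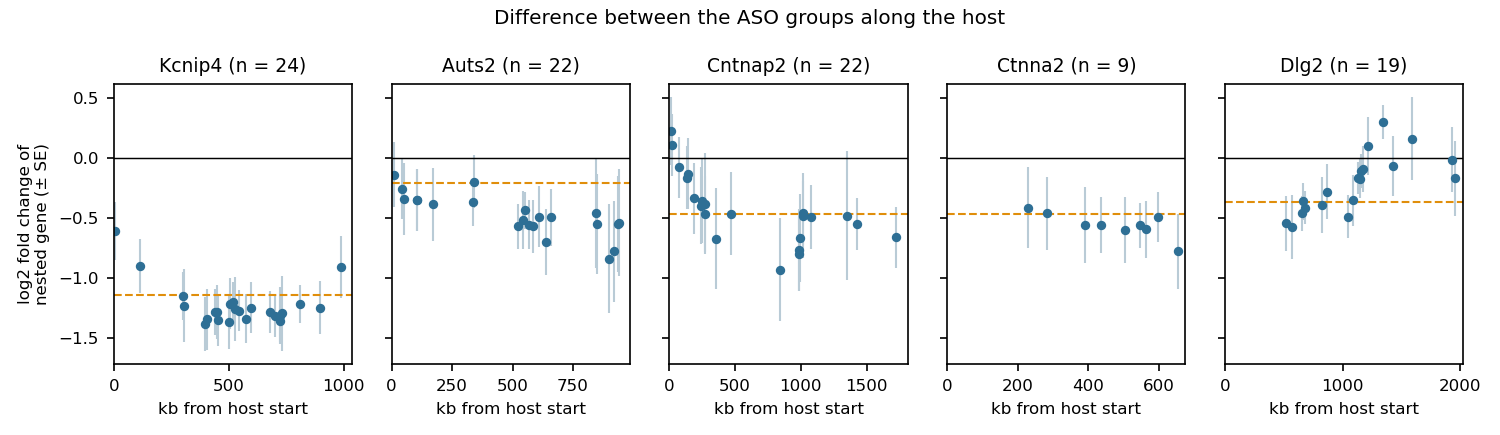
Log2 fold change (Snhg11-ASO over Control-ASO) of each nested TEC gene against its distance from the start of the host in kb, in the 5 hosts with at least 9 nested genes. Bars are the standard error and the dashed line is the log2 fold change of the host's exons. In Cntnap2 the points begin at 0.22 and reach -0.94, and in Dlg2 they move upward to 0.30.

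**Figure D5:**
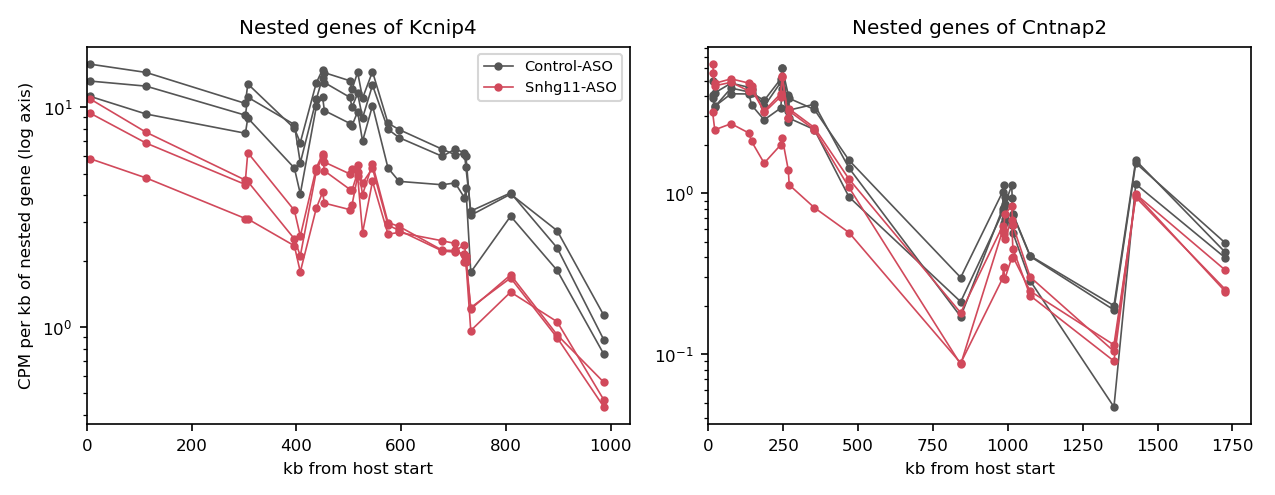
Level of each nested TEC gene in CPM per kb (log axis) against its distance from the host's start in kb, with 1 line per sample, for Kcnip4 and Cntnap2. Grey lines are Control-ASO and red lines Snhg11-ASO samples. In Kcnip4 every red line lies under the grey lines at each nested gene, and in Cntnap2 1 red line (Snhg11-ASO replicate 1) lies under the others at the nested genes nearest to the start.

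TEC genes in shorter hosts were less often low. Of 521 tested TEC genes nested in hosts of 200 to 800 kb, 73 were lower and 1 higher at an unadjusted p under 0.05 (14.0% and 0.192%), with a median log2 fold change of -0.19. Of 624 in hosts of up to 200 kb, 9 were lower and 2 higher (1.44% and 0.321%), with a median of 0.03. Of 381 inside no protein-coding gene of their strand, 29 were lower and 9 higher (7.61% and 2.36%), with a median of -0.01. The shares over all genes tested were 4.43% and 3.68%. Only 2 TEC genes on the opposite strand inside the same hosts could be tested, and neither had a p under 0.05. The difference between these classes was not tested. At the edge of the rule, Gm47374 in Immp2l (mean count 10) and Gm38330 in Thsd7b (11.2) were just inside, and Gm48437 (9.5) and Gm38379 (9.17) just outside. The shortest host inside was Adgrl3 (805 kb) and the longest outside with a TEC gene of sufficient count was Lrrtm4 (791 kb).

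Of 46 genes for the copying of long genes and the handling of introns (RNA polymerase II, elongation factors, topoisomerases, splicing and termination factors), all were tested. In edgeR 0 passed the adjusted p, and at an unadjusted p under 0.05 none was lower and 1 was higher (the share over all genes was 3.68%), and DESeq2 called 0. The 1 was Cdk9, the kinase that releases paused polymerase, with 34.1, 36.5 and 33.0 CPM in Control-ASO and 49.9, 41.6 and 40.6 CPM in Snhg11-ASO (log2 fold change 0.35, SE 0.11, adjusted p = 0.543 from edgeR). The log2 fold change was above 0 for 39 of the 46, with a median of 0.11, and the groups were separated upward in 8 and downward in 1 (7.73% and 7.7% over all genes). Snhg11-ASO replicate 1 stood highest in several of them: Polr2a, the largest subunit of RNA polymerase II, had 47.6, 43.6 and 41.5 CPM in Control-ASO against 115, 44.0 and 48.9 CPM in Snhg11-ASO.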

How the data were processed

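Gene expression was measured by paired-end, strand-specific sequencing of ribosome-depleted total RNA in 3 Control-ASO and 3 Snhg11-ASO samples. The authors aligned reads to mm10 with STAR (2.5.2a in the submitters' notes) and deposited a table of counts per gene and sample, with 1 column for both strands and 1 for each strand. The values are raw read counts per gene without normalization, in the layout of STAR's own counts, although the methods name another counter, and the annotation release is not given in the sources used here. Counts of the strand of the library were used. The 4 summary lines of each table, 43.5 to 51.4% of all pairs, stayed out of library sizes and tests.

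Of the 55401 identifiers, 55141 matched GENCODE M21, which gave biotypes and positions. Each TEC gene was assigned to the longest protein-coding gene containing it on its strand. The nested genes and the lists were chosen with earlier results of these data known. The 2 genes that the rule leaves out by name did not meet its other terms.

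All genes were fitted with edgeR 4.0.16 (R 4.3.3) by the quasi-likelihood test with TMM factors, after filterByExpr with a minimum count of 10, which all 152 nested genes passed, and with Benjamini-Hochberg adjustment over 19969 genes. CPM uses the TMM-scaled library sizes. The common biological coefficient of variation was 0.266. DESeq2 1.42.0 was an alternative and gave an adjusted p to 123 of the 152. Nested sums per host replaced the single nested genes in a further edgeR fit. Ratios, log2((nested + 0.5)/(host + 0.5)), were fitted over 722 hosts with limma 3.58.1. Single values were compared by exact two-sided permutation tests. The scripts were tested on simulated data. Same-numbered samples deviated from their group means together (correlations of 0.297, 0.179 and 0.103 over all genes), and differently numbered samples were not compared in this way. The main fits and the exact tests were unpaired, and a fit with the replicate number as a block was an alternative. The study removed 1 Snhg11-ASO sample that it does not name, and all 6 were used here.

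The text names the 10 hosts with the most nested counts with their most counted nested gene, the 5 nested genes with the smallest p in each direction, the 2 hosts with the most extreme ratio difference at each end, and those at the edges of the rule. Other names were chosen after their values were seen. Of the 33 hosts, 1 is counted in the totals but not reported here by name.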

Additional observations from a re-analysis of the deposited data

How the results depend on the processing

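The lower direction of the nested genes held in every alternative tried: the median log2 fold change was -0.63 to -0.38 when each sample was left out in turn and -0.50 with the replicate number as a block, where 51 nested genes were again lower at an unadjusted p under 0.05. That number ran from 31 (without Control-ASO replicate 1) to 55 over the samples left out, with 33 without Control-ASO replicate 2, and was 27 without the nested genes of Kcnip4. For all genes tested it ran from 534 of 20640 (without Control-ASO replicate 1) to 1120 of 20226 (without Snhg11-ASO replicate 1). It was 1007 of 20793 without Control-ASO replicate 2 and 885 of 19969 with all samples. Nested genes higher at that p numbered 0 to 2 over the samples left out, the 2 coming without Snhg11-ASO replicate 1. In that fit 891 of all 20226 genes tested were higher. The count past an adjusted p of 0.05 was 0 in each edgeR fit and 25 in DESeq2, or 3 without Kcnip4. Hosts with a lower ratio at an unadjusted p under 0.05 numbered 0 to 1 over the samples left out, and 1 with counts of both strands, with a pseudocount of 5 and with the median over nested genes. Hosts with a higher ratio numbered 0 to 3 over the samples left out, and 1 for hosts over 1000 kb, with a pseudocount of 5 and with the replicate block. The block changed no other call.

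Of the 33 named genes, 6 changed the sign of their log2 fold change when a sample was left out, with these ranges: Gm43879 from -0.057 to 0.35, Gm47590 from -0.24 to 0.42, C230086J09Rik from -0.071 to 0.20, Gm45501 from -0.21 to 0.16, Gm43594 from -0.053 to 0.45 and Gm43084 from -0.30 to 0.65. The cause was not tested. DESeq2 moved 10 named genes past an adjusted p of 0.05. With 3 samples a group no exact test can go below p = 0.1, and nested genes with a mean count near 10 carry large counting error. The fits without the nested genes of a host and the slopes along the host were chosen after seeing the data.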
